A study of Mus musculus with 4 samples.

Results

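Calprotectin, the dimer of *S100a8* and *S100a9*, is the most abundant cytosolic protein of neutrophils, and its genes were used here to pick neutrophils out of 2 libraries of single bone marrow cells. Cells were chosen by their RNA, and a cell was taken when *S100a8* and *S100a9* together made up 5% or more of its unique molecular identifiers (UMIs, each of which marks 1 captured RNA molecule). This gave 158 of 1924 cells (8.21%, exact binomial 95% interval 7.02% to 9.53%) in the WT library and 189 of 3068 cells (6.16%, 5.34% to 7.07%) in the *Tet2* KO library. These 347 calprotectin-high cells are 347 of 8969 cells in the whole data set. In the 2 sorted GMP libraries of the same study, the same limit was passed by 1 of 1258 WT and 1 of 2719 *Tet2* KO cells, which were not used. The cell totals that the study lists for the WT Lin-/CD11b+ and the *Tet2* KO GMP library are interchanged relative to the deposited table. The library and genotype of each cell were taken here from the deposited table.

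The study compared hematopoiesis in mice with and without *Tet2*, an enzyme that oxidizes methylated cytosine. *Tet2* KO mice carried *Tet2* fl/fl and Mx1-Cre, a recombinase under an interferon-inducible promoter, and WT mice carried *Tet2* fl/fl without Cre. Both received pI:pC, an inducer of interferon, in 4 doses (12.5 ug/g each), so the treatment is shared by both genotypes. The methods give an age of 8 to 12 weeks for the mice of all experiments and no age at pI:pC. Sorted Lin- progenitors and CD11b+ myeloid cells, pooled in 1 library per genotype (22681380 UMIs in WT and 34024599 in *Tet2* KO), hold the cells described here. With 1 library per genotype there was no replicate and no test, genotype cannot be told apart from mouse or preparation, and all intervals are at the 95% level and reflect counting error alone. The share of the library also depends on the sort gate and on the deposited cells having at least 5003 UMIs each.

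Neutrophils arise from granulocyte-monocyte progenitors through dividing promyelocytes and myelocytes, then stop dividing and mature through metamyelocytes and band cells. Their granule proteins are made in sequence. Primary (azurophil) granules with *Mpo*, *Elane*, *Prtn3* and *Ctsg* come first, and secondary (specific) granules with *Ltf*, *Camp*, *Ngp* and *Lcn2* follow in myelocytes. Tertiary (gelatinase) granules with *Mmp9* come last, together with genes for migration such as *Cxcr2*. *Retnlg*, a secreted resistin-like protein, marks the most mature neutrophils of mouse bone marrow.

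The limit of 5% fell in a sparse part of the WT library and a fuller part of the *Tet2* KO library. The WT cells just inside and just outside it had 5.78% and 4.34% of their UMIs in the gene pair, and the *Tet2* KO cells 5.09% and 4.99%. Between 4% and 5% lay 1 WT and 17 *Tet2* KO cells, and between 5% and 10% lay 6 and 23. By contrast, 114 WT and 96 *Tet2* KO cells had 30% or more, and 1758 and 2768 cells of the same libraries had under 1%. These values chose the cells and are given as a description.

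**Figure D1:**
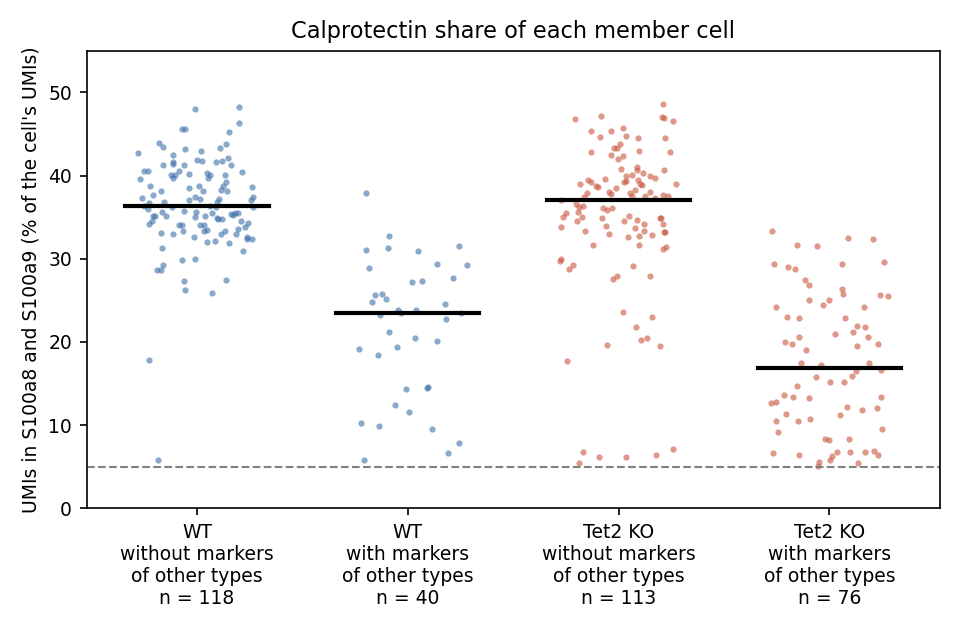
Share of each cell's UMIs in *S100a8* and *S100a9* (percent), for the calprotectin-high cells of the WT and *Tet2* KO libraries, with cells carrying markers of other types drawn apart. Shares ran from 5.78% to 48.2% in WT and from 5.09% to 48.6% in *Tet2* KO, and the cells with markers of other types lie lower than the rest.

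Calprotectin RNA took a median of 34.9% of a cell's UMIs in WT (lowest 5.78%, highest 48.2%) and 31.5% in *Tet2* KO (5.09% to 48.6%). Summed over cells, *S100a8* was at 195915 CPM (counts scaled to the total of the cells summed, in parts per 1000000) in WT and 164768 in *Tet2* KO, and *S100a9* at 117702 and 99679. *S100a8* exceeded *S100a9* in 158 of 158 and 189 of 189 cells, and the ratio of their UMIs was 1.67 (1.66 to 1.67) in WT and 1.65 (1.64 to 1.66) in *Tet2* KO. The 2 partner RNAs thus stood in nearly the same proportion in both libraries. In all other cells of the libraries, where the pair was low, the ratio was 2.30 (2.19 to 2.40) in WT and 4.22 (4.12 to 4.32) in *Tet2* KO. The calprotectin-high cells held 98.3% of all *S100a8* and *S100a9* UMIs of the WT library and 91.8% of those of the *Tet2* KO library.

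The cells carried the RNAs of neutrophils. All 10 neutrophil markers checked were detected in both libraries, of which *S100a8* and *S100a9* were fixed by the choice of cells. The others included *Ly6g*, the surface protein used to define mouse neutrophils, at 609 CPM in WT and 402 in *Tet2* KO, and *Cebpe*, the transcription factor of secondary granule genes, at 481 and 407. After the calprotectin genes, the highest levels were those of *Camp*, the antimicrobial peptide cathelicidin (61345 CPM in WT and 40431 in *Tet2* KO), and *Ngp*, neutrophilic granule protein (47572 and 31532). *Lcn2*, which binds bacterial siderophores, was at 13238 and 8805 CPM. In all other cells of the WT library, *Camp*, *Ngp* and *Lcn2* were at 31.3, 30.8 and 25.5 CPM. The median cell had 8878 UMIs and 1618 genes in WT and 9054 UMIs and 1775 genes in *Tet2* KO, fewer genes than the 2516 and 2504 of the other cells. Ribosomal protein genes took a median of 6.74% of UMIs in WT and 11.3% in *Tet2* KO cells, against 36.7% and 35.5% in the other cells.

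Some calprotectin-high cells also carried RNAs of other cell types, and more of them did so in *Tet2* KO. Monocyte markers reached 5 or more UMIs in 30 WT cells (19.0%, 13.2% to 26.0%) and 71 *Tet2* KO cells (37.6%, 30.6% to 44.9%). With cells thinned to 5000 UMIs these shares were 15.2% and 30.2%. Of the marked cells, 24 in WT and 52 in *Tet2* KO had 1% or more of their UMIs in *Ngp*, *Camp* and *Ltf*. Their median calprotectin share was 23.4% in WT and 15.9% in *Tet2* KO. Among all calprotectin-high cells, marked or not, 2 in WT and 15 in *Tet2* KO had more UMIs of monocyte markers, *Ly6c2* included, than of the maturation genes. The summed level of all 9 monocyte markers was 1622 CPM in WT and 2351 in *Tet2* KO, and none was at 0. B and plasma cell markers were at 12257 and 4223 CPM, with 94.6% of the WT UMIs of *Igkc*, the kappa light chain, in 3 cells, T and NK markers at 160 and 536, and basophil and mast cell markers at 31.2 and 339. Among eosinophil markers, *Epx* and *Prg3* were at 0 in both libraries, and 6 of 8 erythroid markers were at 0. What the marked cells are was not tested, and each main result is also given for the 118 WT and 113 *Tet2* KO cells without such markers, called unmarked. In unmarked cells, monocyte markers were at 1307 and 1331 CPM, nearly all of it *Ly6c2*, which neutrophils also express, and B and plasma markers at 489 and 498. T and NK markers were still unequal there, at 127 and 448 CPM, mostly *Nkg7*, a granule protein gene of cytotoxic cells, at 119 and 423, and its part in the genotype differences was not tested. The median calprotectin share of unmarked cells was 36.3% in WT and 37.1% in *Tet2* KO.

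Maturation was followed by the share of *Retnlg* and *Mmp8* (late) among the UMIs of *Ngp*, *Camp*, *Ltf*, *Retnlg* and *Mmp8*, for cells with at least 20 such UMIs. *Ltf* encodes lactoferrin, which withholds iron from bacteria, and *Mmp8* the neutrophil collagenase. The sequence before the transcription start of these 5 genes is shown, because their order of use sets the axis, in lower case with matches to TTGCNNAA on either strand in capitals, a core of the motif bound by C/EBP factors such as Cebpe. The sequences are from RefSeq (build GRCm38.p6), read 5′ to 3′ on the strand of the gene, and stop before the first base of any annotated transcript.
*Ngp*, chr9:110419558-110419746 (plus strand): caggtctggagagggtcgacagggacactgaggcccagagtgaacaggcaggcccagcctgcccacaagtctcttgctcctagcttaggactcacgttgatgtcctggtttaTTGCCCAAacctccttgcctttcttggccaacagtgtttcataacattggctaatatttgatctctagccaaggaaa
*Camp*, chr9:109849618-109849706 (minus strand): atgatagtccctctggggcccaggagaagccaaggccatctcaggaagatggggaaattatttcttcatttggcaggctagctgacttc
*Ltf*, chr9:111019042-111019270 (plus strand): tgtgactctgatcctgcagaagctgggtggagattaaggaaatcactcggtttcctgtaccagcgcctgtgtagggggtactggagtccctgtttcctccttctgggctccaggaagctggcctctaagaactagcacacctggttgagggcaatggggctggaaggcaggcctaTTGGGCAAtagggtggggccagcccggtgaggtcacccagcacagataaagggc
*Retnlg*, chr16:48872358-48872607 (plus strand): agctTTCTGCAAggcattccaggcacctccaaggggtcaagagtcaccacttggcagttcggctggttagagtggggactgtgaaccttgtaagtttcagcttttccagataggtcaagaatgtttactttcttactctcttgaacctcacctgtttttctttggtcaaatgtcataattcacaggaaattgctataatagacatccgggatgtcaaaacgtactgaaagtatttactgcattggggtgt
*Mmp8*, chr9:7558179-7558428 (plus strand): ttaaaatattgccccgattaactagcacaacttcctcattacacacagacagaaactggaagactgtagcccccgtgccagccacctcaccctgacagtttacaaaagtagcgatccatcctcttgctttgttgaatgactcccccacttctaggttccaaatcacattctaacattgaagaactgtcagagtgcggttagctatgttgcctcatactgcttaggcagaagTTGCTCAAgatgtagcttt
A match stood in the window of 4 of the 5 genes, *Ngp*, *Ltf*, *Retnlg* and *Mmp8*, and not in the 89 bases shown for *Camp*. It was also found upstream of *S100a9* and not in the 157 bases read for *S100a8*. Of 32817 windows of 250 bases before mouse genes, 9.57% held a match. A match is a run of letters and not evidence of binding.

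Most cells had few late UMIs in both libraries, and fewer *Tet2* KO than WT cells were far along it. No late UMI was found in the cells of the first range, the middle range reached a late share of 0.401%, and the last range held the cells above it. Of 156 WT cells with a position, 54 (34.6%, 27.2% to 42.6%) were in the first, 45 (28.8%, 21.9% to 36.6%) in the middle and 57 (36.5%, 29.0% to 44.6%) in the last range. Of 173 *Tet2* KO cells, 81 (46.8%, 39.2% to 54.5%) were in the first, 39 (22.5%, 16.6% to 29.5%) in the middle and 53 (30.6%, 23.9% to 38.1%) in the last range, and 2 WT and 16 *Tet2* KO cells had no position. The intervals of each range overlapped between genotypes. A late share of 10% or more was reached by 28 WT cells (17.9%, 12.3% to 24.9%) and 16 *Tet2* KO cells (9.25%, 5.38% to 14.6%), and a share of 50% or more by 5 and 6.

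In unmarked cells the genotypes stood further apart. The first range held 45 of 118 WT cells (38.1%, 29.4% to 47.5%) and 66 of 109 *Tet2* KO cells (60.55%, 50.7% to 69.8%), and these intervals did not overlap. The last range held 33 WT cells (28.0%, 20.1% to 37.0%) and 23 *Tet2* KO cells (21.1%, 13.9% to 30.0%). No unmarked cell had a late share of 50% or more, so the 11 cells that did in both libraries carried markers of other types. Within the last range of all cells, the median cell had 97 late UMIs in WT and 18 in *Tet2* KO, and 0 WT and 5 *Tet2* KO cells were placed there by only 1 or 2 late UMIs. Monocyte-marked cells made up 7.41%, 6.67% and 36.8% of the first, middle and last range in WT, and 16.0%, 46.2% and 52.8% in *Tet2* KO, and their part in the differences between ranges was not tested beyond the values for unmarked cells.

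**Figure D2:**
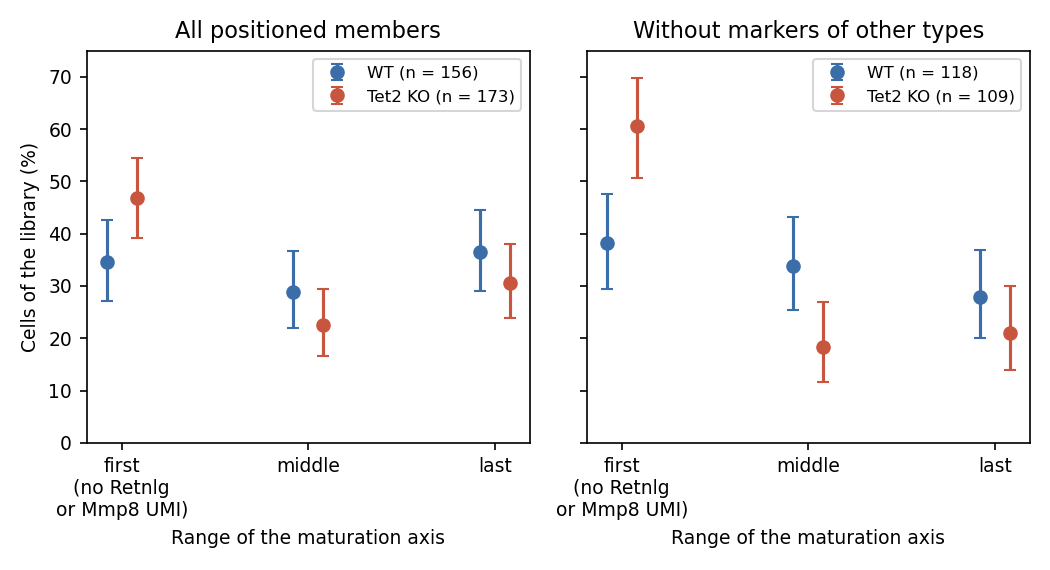
Share of calprotectin-high cells (percent of cells with a position) in the first, middle and last range of the maturation axis, for WT and *Tet2* KO, in all cells and in unmarked cells, with exact binomial 95% intervals as bars. The first range held 34.6% of WT and 46.8% of *Tet2* KO cells, and 38.1% and 60.55% of unmarked cells.

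The genes that define the axis are described by their levels only. *Retnlg* was at 0, 148 and 9948 CPM in the first, middle and last range of WT and at 0, 91.7 and 4335 CPM in *Tet2* KO. *Mmp8* was at 0, 29.0 and 617 CPM in WT and 0, 19.5 and 471 in *Tet2* KO. Both were at 0 in the first range by the construction of the axis. *Camp* was at 68372, 78423 and 42831 CPM in WT and 49599, 49102 and 29035 in *Tet2* KO, and *Ngp* at 54771, 57341 and 34039, and 39226, 37811 and 22292. *Ltf* was at 5413, 5893 and 5674 CPM in WT and 3922, 4697 and 4062 in *Tet2* KO. The secondary granule genes therefore stayed among the most abundant RNAs of the last range, with *Camp* and *Ngp* lower there and *Ltf* close to its level in the first range.

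Outside these genes, 496 of 3367 genes with enough UMIs (14.7%) were at least 2-fold higher in the last than in the first range in WT, and 265 (7.87%) at least 2-fold lower. In *Tet2* KO, 662 of 4280 (15.5%) were higher and 121 (2.83%) lower. In both libraries at once, 240 of 3252 genes (7.38%) were higher and 49 (1.51%) lower, and in unmarked cells 47 of 2009 (2.34%) and 18 (0.896%). CPM depends on the few most abundant genes, and the median of all genes was itself 0.14 higher in the last range in WT and 0.32 higher in *Tet2* KO on the log2 scale, so single changes are to be read against that shift. With TMM factors, which set the shift near 0, the counts in both libraries were 139 higher and 113 lower.

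Cell division genes were high in the first range and low in the last. All 14 genes of mitosis (G2/M) were lower in the last range in both libraries, with 14 of 14 in WT and 4 of 14 in *Tet2* KO past 2-fold, and medians of -1.62 and -0.74 on the log2(CPM + 1) scale. *Ube2c*, a ubiquitin-conjugating enzyme of the anaphase-promoting complex, was at 400, 404 and 90.0 CPM across the ranges in WT and 497, 316 and 175 in *Tet2* KO. *Birc5*, survivin of the chromosomal passenger complex, was at 285, 261 and 80.8 CPM in WT and at 354, 332 and 162 in *Tet2* KO. DNA synthesis (S phase) genes had a median of -1.38 in WT, with 9 of 11 past 2-fold lower, and of -0.32 in *Tet2* KO, with 1 of 14. *Tyms*, thymidylate synthase, was at 122, 87.1 and 23.9 CPM in WT and 90.4, 76.1 and 31.3 in *Tet2* KO. In unmarked cells the medians for mitosis were -1.58 and -0.67, whereas that for DNA synthesis was -1.74 in WT and 0.16 in *Tet2* KO, at the shift of all genes there (-0.11 in WT and 0.16 in *Tet2* KO). DNA synthesis genes were thus lower in the last range of unmarked WT cells, and at the level of all genes in unmarked *Tet2* KO cells, a difference that was not tested.

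The named genes that were lower in the last range, by a rule that asked for at least 100 UMIs in each library and a 2-fold difference the same way in both with an offset of 10 CPM, were 10 of 1082 (0.924%). Of these, *Ube2c*, *Tyms*, *Cdca8*, *Spc25*, *Nusap1*, *Birc5* and *Tubb5* act in DNA synthesis or on the spindle and chromosomes, and *Hmgn2* is a nucleosome-binding protein. *Fcnb*, ficolin B, a lectin of immature neutrophils, was at 1231, 1086 and 353 CPM in WT and at 1479, 1053 and 624 in *Tet2* KO. *1700020L24Rik* was the last of them, at 154, 131 and 49.6 CPM in WT and 158, 140 and 68.1 in *Tet2* KO. *Chil3*, a chitinase-like protein of secondary granule stage cells, was at 6878, 7487 and 3425 CPM in WT and 6828, 6967 and 4263 in *Tet2* KO. *Cebpe* followed the same course, at 567, 612 and 303 CPM in WT and 509, 472 and 282 in *Tet2* KO.

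The genes higher in the last range by the same rule were 45 of 1082 (4.16%), and the 10 with the largest mean ratios were *Mmp9*, *Apoe*, *Ccl6*, *Wfdc17*, *Ifi27l2a*, *Samhd1*, *Psap*, *S100a6*, *Crip1* and *Ccl9*. *Mmp9*, gelatinase B of tertiary granules, was at 14.2, 26.6 and 672 CPM in WT and 45.2, 42.9 and 359 in *Tet2* KO, with log2 ratios of 5.57 and 2.99, and in unmarked cells of 5.68 and 3.50. *S100a6*, a further S100 protein, was at 799, 1139 and 4636 CPM in WT and 1058, 1467 and 3628 in *Tet2* KO, with log2 ratios of 2.89 and 1.67 in unmarked cells. These genes kept their course in cells without markers of other types. *Ccl6*, a chemokine of myeloid cells, had log2 ratios of 3.17 and 2.80, and of 5.67 and 5.17 in unmarked cells. *Crip1* had ratios of 0.78 and 0.12 in unmarked cells, and *Ccl9* of 2.58 and -0.06. *Apoe*, *Wfdc17*, *Ifi27l2a*, *Samhd1* and *Psap* had 14 to 138 UMIs left per library in unmarked cells.

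**Figure D3:**
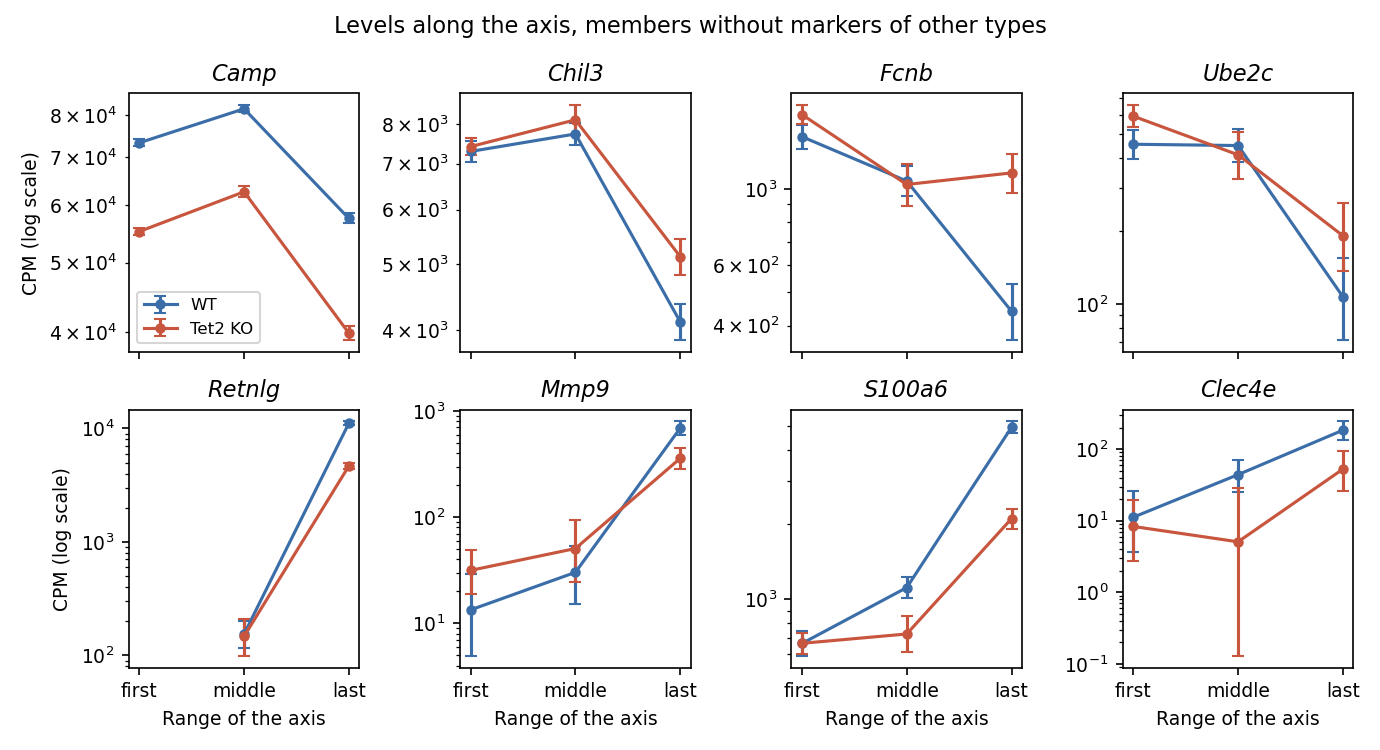
Level (CPM, log axis) of 8 genes in the first, middle and last range of the maturation axis, in unmarked cells of WT and *Tet2* KO, with exact Poisson 95% intervals as bars and no point where no UMI was found. *Ube2c* declines, *Camp* is lowest at 39892 CPM, and *Mmp9*, *S100a6* and *Retnlg* increase toward the last range in both libraries.

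Most measured genes of mature neutrophils were higher in the last range. The list called tertiary granule here also holds late genes such as *Retnlg* and *Mmp8*, which are left out along the axis. In the tertiary granule list, 4 of 5 measured genes were at least 2-fold higher in each library, with medians of 1.74 in WT and 1.14 in *Tet2* KO, and *Slpi*, a leukocyte protease inhibitor, went from 386 to 851 CPM in WT and from 249 to 512 in *Tet2* KO. In the list of mature and migratory genes, 11 of 14 in WT and 6 of 10 in *Tet2* KO were at least 2-fold higher, with medians of 1.79 and 1.03. The summed level of this list moved much less, from 8492 CPM in the first to 10670 in the last range of WT (0.33, 0.27 to 0.38) and from 8426 to 8463 in *Tet2* KO (0.01, -0.05 to 0.06). Its most abundant member, *Wfdc21*, was at 7413, 8074 and 7741 CPM in WT and 7235, 6860 and 6187 in *Tet2* KO. *Cxcr2*, the receptor that draws neutrophils out of the marrow, was at 26.6, 21.8 and 90.0 CPM in WT and 10.3, 21.5 and 55.2 in *Tet2* KO. *Clec4e*, the lectin receptor Mincle, was at 14.2, 41.1 and 143 CPM in WT and 14.2, 21.5 and 42.4 in *Tet2* KO. The medians of these groups in unmarked cells were 1.88 and 1.35 for tertiary granules and 1.29 and 1.19 for mature and migratory genes. *Ly6g* was at 415, 522 and 893 CPM in WT and 412, 355 and 527 in *Tet2* KO, and the 3 ranges of WT were thus ordered while those of *Tet2* KO were not.

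Further groups had medians above the shift of all genes, and most of these medians were smaller in unmarked cells. Interferon-stimulated genes had medians of 1.75 in WT and 1.06 in *Tet2* KO, and of 1.24 and 0.60 in unmarked cells. Transcription factors had medians of 1.27 and 0.87, and of 0.96 and 0.33 in unmarked cells. Among them, *Junb*, an AP-1 factor, was at 110, 128 and 489 CPM in WT and 81.3, 109 and 188 in *Tet2* KO. The S100 family outside the calprotectin pair had medians of 1.18 and 1.13, and of 0.57 and 0.21 in unmarked cells. The partners and receptors of calprotectin had 1.33 and 0.55, and 1.15 and 0.75 in unmarked cells, and surface and adhesion genes 0.82 and 0.39, and 0.88 and 0.44. Monocyte markers themselves had medians of 2.51 and 2.24, and in unmarked cells 1 of the 9, *Ly6c2*, had enough UMIs.

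Primary granule genes had medians of -0.57 in WT and 0.27 in *Tet2* KO. Past 2-fold, 2 of 8 were higher and 2 lower in WT, and 1 of 8 was higher in *Tet2* KO. Oxidative phosphorylation genes had medians of -0.10 and 0.25. The remaining groups had medians between -0.07 and 0.52. Secondary granule genes outside the axis had medians of 0.09 in WT and -0.02 in *Tet2* KO, with 1 of 7 past 2-fold lower in WT and 1 of 7 higher in *Tet2* KO. Glycolysis genes had medians of 0.13 and -0.07 with 0 of 11 past 2-fold in either library, and phagocytosis and killing genes of 0.06 and 0.01. Ribosomal protein genes had 0 of 80 past 2-fold in either library and medians of 0.12 and 0.52, which were -0.24 and 0.36 in unmarked cells. The signs of the smaller of these medians changed with the scaling.

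Between genotypes, primary granule genes were higher and secondary and tertiary granule genes lower in *Tet2* KO than in WT calprotectin-high cells. Over all genes with enough UMIs, 1898 of 6810 (27.9%) were at least 1.5-fold higher in *Tet2* KO and 312 (4.58%) at least 1.5-fold lower, and in unmarked cells 1121 of 4793 (23.4%) and 327 (6.82%). The median of all genes was 0.31 on the log2 scale, and 0.22 in unmarked cells, and *Camp*, *Ngp* and the calprotectin genes took a smaller part of the *Tet2* KO UMIs. With TMM factors the median was 0.02 and the counts were 880 higher and 747 lower. The directions of the granule and maturation lists given here held under every scaling tried.

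Primary granule genes had a median log2 ratio of 1.77, with 7 of 8 at least 1.5-fold higher, and 1.98 in unmarked cells, with 6 of 7. *Mpo*, myeloperoxidase, was at 137 CPM in WT and 557 in *Tet2* KO, a log2 ratio of 2.02 (1.81 to 2.24). *Elane*, neutrophil elastase, was at 430 and 1613 CPM (1.91, 1.78 to 2.03), *Prtn3*, proteinase 3, at 285 and 888 (1.64, 1.49 to 1.80), and *Ctsg*, cathepsin G, at 91.7 and 413 (2.17, 1.91 to 2.44). The exception was *Serpinb1a*, an inhibitor of these proteases, at 683 and 685 CPM. A small number of cells carried most of this RNA. Cells with 1% or more of their UMIs in the list were 4 of 158 in WT (2.53%, 0.694% to 6.36%) and 18 of 189 in *Tet2* KO (9.52%, 5.74% to 14.6%), and 4 of 118 and 15 of 113 among unmarked cells. They held 60.7% of *Mpo* UMIs in WT and 84.4% in *Tet2* KO. In the remaining cells the list summed to 1328 CPM in WT and 1782 in *Tet2* KO. *Mpo* was at 55.8 CPM in WT and 99.0 in *Tet2* KO in these remaining cells, and *Elane* at 167.5 and 308. The difference was thus smaller there but still present for both genes. Of the 18 *Tet2* KO cells, 8 were in the first range, 0 in the middle, 6 in the last and 4 had no position, and 8 had under 10% of their UMIs in calprotectin. Of the 4 WT cells, 3 were in the first range and 1 in the last. By range, the list medians were 1.205, 0.41 and 1.77 in the first, middle and last range, against 0.14, 0.37 and 0.33 for all genes. In the middle range, which held none of these cells, the list median was thus close to that of all genes, with 3 of 8 genes at least 1.5-fold higher.

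**Figure D4:**
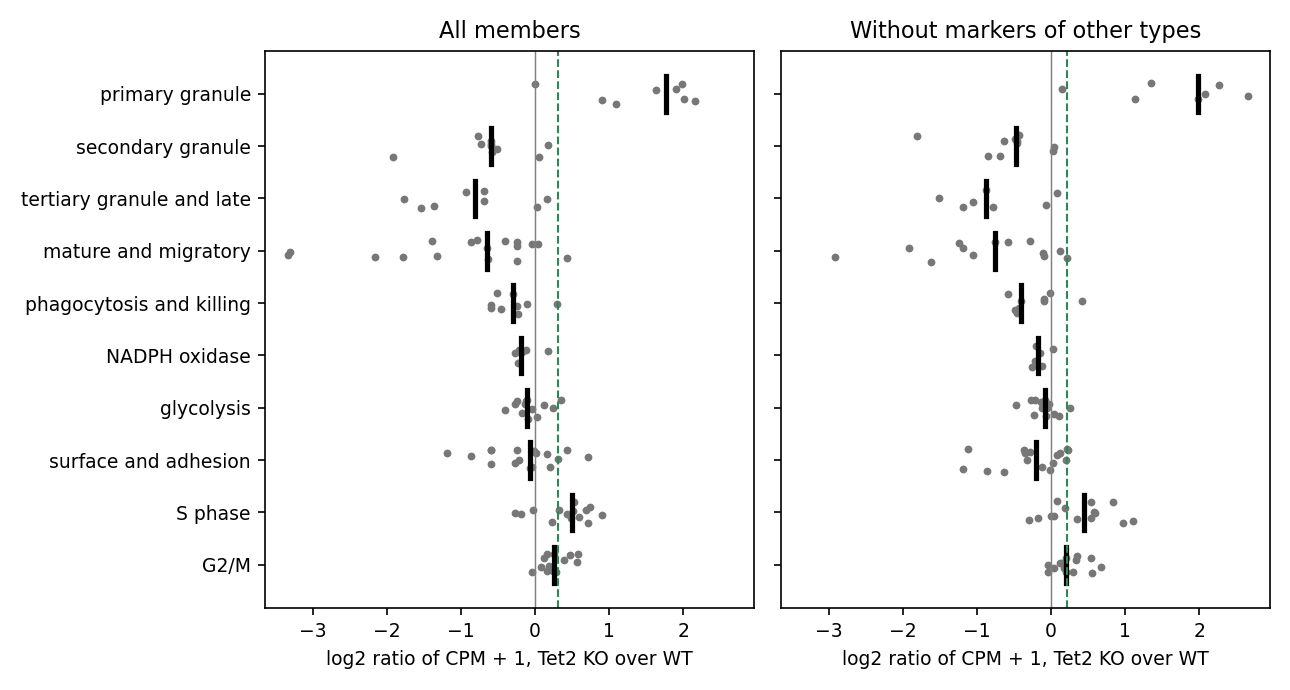
*Tet2* KO over WT, as the log2 ratio of CPM + 1, for the genes of 10 lists in calprotectin-high cells, with 1 dot per gene, a black bar at the list median and a dashed line at the median of all genes (0.31). Primary granule genes lie to the high side with a median of 1.77, and secondary granule, tertiary granule and mature genes to the low side with medians of -0.60, -0.81 and -0.65.

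Secondary granule genes had a median of -0.60, with 7 of 10 at least 1.5-fold lower in *Tet2* KO, and -0.48 in unmarked cells, with 4 of 10. *Camp* had a median of 669 UMIs per 10000 in WT cells (0 to 1089) and 424 in *Tet2* KO cells (0 to 1267), and *Ngp* of 521 (0 to 946) and 359 (0 to 752). The cells of both genotypes overlapped over nearly the whole range. In unmarked cells these medians were 752 and 558 for *Camp* and 559 and 441 for *Ngp*. Their log2 ratios of summed CPM were -0.60 (-0.62 to -0.59) and -0.59 (-0.61 to -0.58), that of *Ltf* -0.52 (-0.56 to -0.47), and that of *Lcn2* -0.59 (-0.62 to -0.56). *Chil3* and *Cybb* did not share this, at 5798 and 5981 CPM and at 644 and 723 CPM. *Olfm4*, olfactomedin 4, a granule protein made by only some neutrophils, was at 194 CPM in WT and 50.4 in *Tet2* KO (-1.94, -2.29 to -1.61), and the 3 richest cells held 23.8% of its UMIs in WT and 52.5% in *Tet2* KO.

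Late genes were lower in *Tet2* KO as well, and mature and migratory genes mainly in the last range. In the tertiary granule list, 6 of 8 were at least 1.5-fold lower with a median of -0.81, and 5 of 7 with -0.88 in unmarked cells. *Retnlg* was at 3561 CPM in WT and 1225 in *Tet2* KO (-1.54, -1.61 to -1.47), *Mmp8* at 228 and 141 (-0.69, -0.93 to -0.46) and *Mmp9* at 250 and 130 (-0.94, -1.18 to -0.71). Of the mature and migratory list, 10 of 17 were at least 1.5-fold lower and 0 higher, with a median of -0.65, and 8 of 13 with -0.76 in unmarked cells. *Cxcr2* was at 47.5 and 25.5 CPM, and *Clec4e* at 67.0 and 25.0. *Csf3r*, the G-CSF receptor, was at 42.9 and 41.8 CPM and *Msrb1* at 908 and 931, and the intervals of both ratios included 0. By range, the medians of the tertiary granule list were 0.40, -0.18 and -0.73 in the first, middle and last range, and those of the mature and migratory list 0.12, -0.13 and -0.69. In the first range 1 of 4 tertiary granule genes was at least 1.5-fold higher and 1 lower, and 2 of 10 mature genes were higher and 3 lower, against 18.2% of all genes higher and 7.16% lower. In the last range 4 of 7 and 8 of 15 were lower and 0 higher, against 7.23% of all genes lower. In the middle range 3 of 10 mature genes were lower and 2 higher, against 154 of 3000 genes lower and 1058 higher. The median of all genes was 0.37 there. Against all genes, the mature and migratory list was thus lower in the middle range too, and most so in the last. The tertiary list cannot show this, because its members *Retnlg* and *Mmp8* were at 0 in the first range by the construction of the axis. Its medians rest on 4, 6 and 7 of 8 genes in the 3 ranges, and those of the mature list on 10, 10 and 15 of 18. In unmarked cells the medians of the 2 lists were 0.24 and 0.06 in the first range and -0.94 and -0.75 in the last. Weighting both libraries to the same share of cells in each range left the median of the primary granule list at 1.40. This also left out the 2 WT and 16 *Tet2* KO cells without a position. Of the 18 *Tet2* KO cells rich in primary granule genes, 4 were among them.

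The genes lower in *Tet2* KO in each of the 3 ranges were 11 of 1605 (0.685%), and those higher in each range 65 (4.05%). The lower ones named by this rule, all lower in unmarked cells too, were *Olfm4*, *C5ar1*, *Tnnt1*, *Ifitm6*, *Gadd45a*, *Ier2*, *Egr1*, *AA467197*, *Dusp1* and *Hp*. *Ifitm6*, a myeloid member of the interferon-induced transmembrane family, was at 1717, 2278 and 3129 CPM in the ranges of WT and 903, 975 and 1405 in *Tet2* KO. Its median was 21.1 UMIs per 10000 in WT cells (0 to 111) and 8.09 in *Tet2* KO cells (0 to 56.5), and its log2 ratio was -1.21 (-1.29 to -1.14), and -1.43 (-1.54 to -1.32) in unmarked cells. Its relatives *Ifitm2* and *Ifitm3* were at 592 and 738 CPM and at 1042 and 1569 CPM, so *Ifitm6* alone of these was lower. *C5ar1*, the receptor for complement C5a, was at 108 CPM in WT and 35.1 in *Tet2* KO (-1.62, -2.04 to -1.21), and *Hp*, haptoglobin, at 1406 and 849 (-0.73, -0.82 to -0.63). The immediate early genes *Ier2*, *Egr1* and *Dusp1* were at 708 and 322, 70.9 and 28.5, and 129 and 67.2 CPM, and *Fos* and *Junb*, of the same class, were at 572 and 335 and at 249 and 130 CPM. Immediate early genes are the class that cells induce within minutes of a stimulus.

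**Figure D5:**
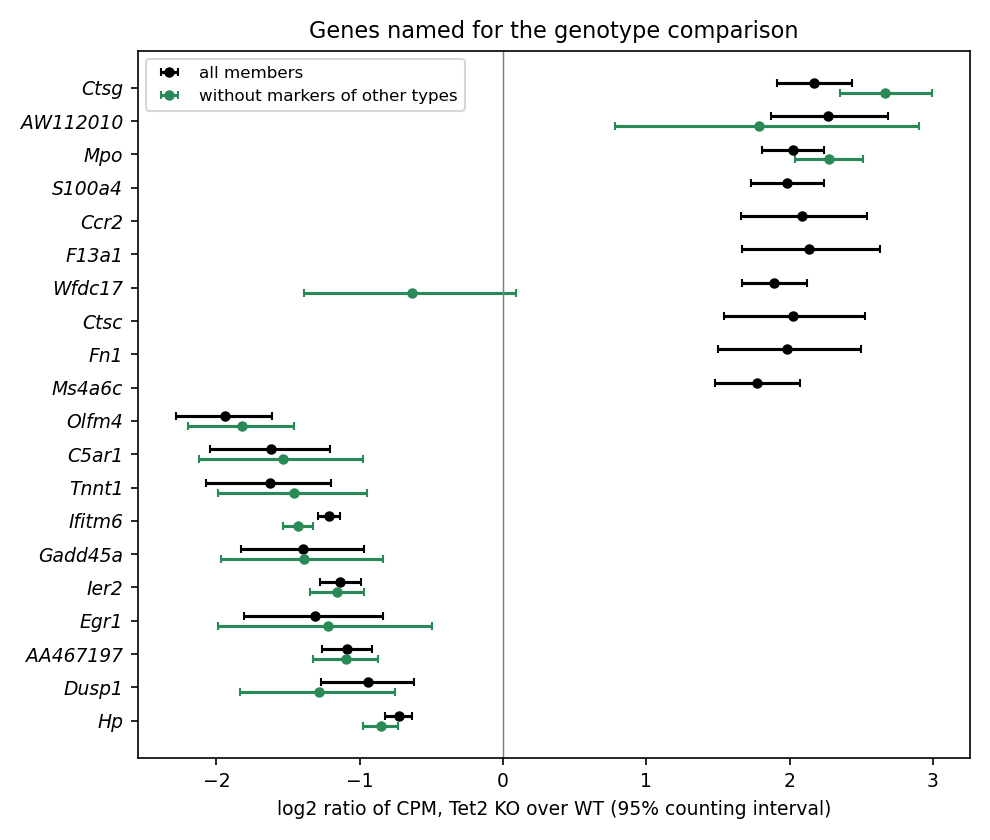
*Tet2* KO over WT, as the log2 ratio of CPM, for the 10 genes named as higher and the 10 named as lower in calprotectin-high cells, in all cells (black) and in unmarked cells (green), with exact conditional binomial 95% intervals as bars and no green point where fewer than 20 UMIs were left. The 10 lower genes lie below 0 in both sets of cells, and of the higher genes *Mpo* and *Ctsg* stay high in unmarked cells.

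The genes named as higher in *Tet2* KO were *Ctsg*, *AW112010*, *Mpo*, *S100a4*, *Ccr2*, *F13a1*, *Wfdc17*, *Ctsc*, *Fn1* and *Ms4a6c*. Apart from *Ctsg*, *Mpo* and *Ctsc*, which processes the proteases of primary granules, most of these are known from monocytes. *S100a4* was at 100 CPM in WT and 396 in *Tet2* KO (1.98, 1.73 to 2.24), with 8 and 3 UMIs left in unmarked cells. *Ccr2*, the chemokine receptor of inflammatory monocytes, was at 34.5 and 147 CPM, with 1 and 2 UMIs left. *F13a1*, *Fn1*, *Ctsc* and *Ms4a6c* had at most 10 UMIs per library left, and *Wfdc17* turned from 1.89 to -0.64. *Ccr2*, *F13a1*, *Fn1* and *Ms4a6c* are among the 8 monocyte markers that set the marked cells apart. Their loss in unmarked cells was thus fixed by that choice and is not a result. Only *Ctsg*, *Mpo* and *AW112010*, a long RNA at 39.0 and 188 CPM, stayed higher with 37 or more UMIs in the unmarked *Tet2* KO cells, at 2.67, 2.27 and 1.79. The other 7 genes had at most 43 UMIs left outside the marked cells in either library.

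Among the remaining S100 genes, *S100a11* was at 2223 CPM in WT and 1893 in *Tet2* KO, *S100a6* at 2294 and 2044, and *S100a10*, like *S100a4* a gene of the marked cells, at 107 and 325 with 13 and 14 UMIs left in unmarked cells. In unmarked cells *S100a6* was at 1852 and 942 CPM (-0.98, -1.09 to -0.86). The list median was 0.47, with 3 of 6 at least 1.5-fold higher, and 0.05 in unmarked cells. Of the list of partners and receptors of calprotectin, *Anxa1*, an anti-inflammatory annexin, was at 2098 and 1393 CPM (-0.59, -0.66 to -0.52), and *Cd33*, a sialic acid receptor, at 63.7 and 41.8, while *Tlr4* had 1 and 10 UMIs and *Ager*, the receptor RAGE, 1 and 3. The list median was -0.59 over 3 measured genes, with 2 at least 1.5-fold lower.

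Dividing genes stood close to all genes when the ranges were pooled, and apart from them in the last range. S phase genes had a pooled median of 0.49, with 5 of 14 at least 1.5-fold higher in *Tet2* KO, and mitosis genes 0.25, with 1 of 14, against 0.31 for all genes. In the first range their medians were 0.23 and 0.12, against 0.14 for all genes. In the last range 8 of 10 S phase genes and 12 of 13 mitosis genes were at least 1.5-fold higher, with medians of 0.87 and 0.99, against 1309 of 3874 genes (33.8%) and a median of 0.33. In unmarked cells of the last range, 7 of 9 mitosis genes were higher, with a median of 0.89, against 36.7% of all genes, and 3 S phase genes had enough UMIs. Ribosomal protein genes had a median of 0.50, with 18 of 81 past 1.5-fold higher, and 0.53 with 33 of 80 in unmarked cells, and oxidative phosphorylation genes 0.34, with 9 of 73. With TMM factors the pooled medians of all cells were 0.19 and 0.03. In the last range 43 of 80 ribosomal protein genes were higher, with a median of 0.60, and in unmarked cells 75 of 79, with 0.89. Subunits of the NADPH oxidase, which makes the oxidative burst, were at -0.20, with 0 of 6 past 1.5-fold, glycolysis genes at -0.11, with 0 of 13, and phagocytosis and killing genes at -0.30, with 2 of 9 lower. Surface and adhesion genes were at -0.06, transcription factors at 0.15, with 4 higher and 3 lower of 16, and interferon-stimulated genes at 0.15, with 2 higher and 2 lower of 10. The last 2 medians changed sign with TMM factors, as did the pooled median of mitosis genes, to -0.05. *Cebpe* was at 481 and 407 CPM (-0.24, -0.39 to -0.09) and *Spi1*, the factor PU.1, at 315 and 290 (-0.12, -0.29 to 0.06).

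*Tet2* itself had 12 UMIs in WT calprotectin-high cells (7.80 CPM, 4.03 to 13.6) and 26 in *Tet2* KO (13.3 CPM, 8.65 to 19.4). These 3′ reads need not lie in the deleted exons and do not check the genotype. Any 2 of the 4 libraries shared 4 to 8 cell barcodes, and none of these belonged to calprotectin-high cells of both.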

How the data were processed

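Bone marrow cells were profiled singly for RNA, and the authors deposited an unnormalized table of UMI counts, made with Cell Ranger 3.1.0 and filtered in Seurat, on mm10 per the submitters' processing notes. The methods and labels name reagent kit v2 and the design text names v3.1. The methods ask for at least 5000 UMIs and under 5% mitochondrial counts, yet 44 WT and 73 *Tet2* KO cells of the Lin-/CD11b+ libraries reach 5%, and all cells were kept. No doublet caller was run.

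The cells, gene lists and tests described here were chosen with earlier results of these data known. UMIs of the cells were summed per library and scaled to CPM, with exact Poisson, binomial and conditional binomial 95% intervals and a floor of 3 counts where no UMI was found. Genes needed 20 UMIs in the sums compared. Lists are given by the median log2 ratio of CPM + 1, which understates the change of low genes, without *S100a8* and *S100a9* and, along the axis, without the 5 axis genes. Axis ranges were planned with equal numbers of cells, but 135 cells tied at 0 and were kept together. Genes were named as the 10 highest and 10 lowest ratios of CPM + 10, along the axis among genes with at least 100 UMIs in each library and 2-fold changed in both, and between genotypes among genes with 100 UMIs in 1 library, 1.5-fold changed in each range and with under 50% of UMIs in 3 cells. *Chil3*, *Slpi* and the other list members with values were picked after their values were seen. Unmarked cells, a set defined after seeing the data, have under 5 UMIs of 8 monocyte markers (*Ly6c2* apart), 20 of B and plasma, and 10 of basophil and mast, dendritic (*Irf8* apart) or T and NK markers (*Nkg7* apart). Of 42 alternatives, 34 were planned and 8 added later. Ratios and intervals were tested on data simulated with counting error alone, so spread between cells was not tested. Python 3.11.15, numpy 2.4.6, scipy 1.17.1, pandas 2.3.3, matplotlib 3.10.9, and edgeR 4.0.16 in R 4.3.3 for TMM factors were used. The values of the NADPH oxidase list along the maturation axis are not reported here.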

Additional observations from a re-analysis of the deposited data

Results flagged for a closer look

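In these results WT and *Tet2* KO, or the first and last range of the axis, lay on opposite sides of 0, as log2 ratios of summed CPM in all calprotectin-high cells. None of these differences was tested, since each group is 1 library. Summed primary granule genes, last over first range, were at -0.50 in WT and 0.25 in *Tet2* KO, and summed oxidative phosphorylation genes at -0.10 and 0.20. *Olfm4*, last over first range, was at -0.69 in WT and 1.38 in *Tet2* KO, and *AW112010* at 1.32 and -0.54. *Mmp9*, *Tet2* KO over WT, was at 1.67 in the first and -0.91 in the last range, and *S100a6* at 0.40 and -0.35. In unmarked cells, *Olfm4* was at 0.20 in WT and 2.13 in *Tet2* KO, and *S100a6* was at 0.00 in the first and -1.22 in the last range, and neither thus stood on opposite sides beyond counting error. For *AW112010* and *Mmp9* an interval included 0 in unmarked cells. With TMM factors, primary granule genes were at -0.67 in WT and -0.13 in *Tet2* KO and oxidative phosphorylation genes at -0.27 and -0.18. The opposite signs of both lists thus depend on the scaling to CPM, whereas the single genes kept theirs. In unmarked cells scaled to CPM, both lists kept opposite signs beyond counting error. Primary granule genes were at -0.27 in WT and 0.70 in *Tet2* KO, and oxidative phosphorylation genes at -0.25 and 0.07. The signs of both lists also depend on the calprotectin limit. The list median of primary granule genes went from 0.27 to -0.86 in *Tet2* KO with a limit of 10%. In WT it went from -0.57 to 0.20 with 3%, and that of oxidative phosphorylation genes from -0.10 to 0.03.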

How the results depend on the processing

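No paired analysis was possible because each genotype has 1 library. Of 629 recomputed list medians, 99 moved by more than their counting error and 52 changed sign, all of the latter from medians short of the fold used for calls (2-fold along the axis, 1.5-fold between genotypes), and 0 of 209 medians past that fold did, and of 718 values for single genes 158 moved and 7 reversed. Without cells with monocyte markers, *F13a1*, *S100a4* and *Wfdc17*, *Tet2* KO over WT, reversed to -0.87, -1.04 and -0.49. In unmarked cells they reversed to -0.96, -1.38 and -0.64, and *Ccl9*, last over first range in *Tet2* KO, to -0.063. *F13a1*, itself a marker used to leave cells out, was at 3.73 CPM in WT and 1.91 in *Tet2* KO in unmarked cells. *S100a4* also had few UMIs left, so no direction is read from either gene. With a limit of 3%, the share of calprotectin-high cells in *Tet2* KO was 7.33%. Without cells with monocyte markers it was 6.65% in WT and 3.85% in *Tet2* KO, with 28.1% and 21.9% in the last range and 59.65% of *Tet2* KO cells in the first. In unmarked cells the shares were 6.13% and 3.68%, with 28.0% and 21.1% in the last range and 60.55% of *Tet2* KO cells in the first. With thinned cells, 43.6% of WT and 59.0% of *Tet2* KO cells were in the first range, and with 2 ranges 47.4% of WT cells were in the first and 52.6% of WT and 46.8% of *Tet2* KO cells in the last. Counts of genes higher and lower in the last range in both libraries were 50 and 24 without monocyte markers, 47 and 18 in unmarked cells, 139 and 113 with TMM factors, 145 and 95 with CPM computed without the 7 genes of the rule and the axis, and 1448 and 374 with no filter on low counts. Counts higher in *Tet2* KO were 1117 without monocyte markers and 1121 in unmarked cells, and counts higher and lower were 880 and 747 with TMM factors, 1144 and 529 without the 7 genes, and 4887 and 1710 with no filter. The cause of these shifts was not tested, apart from the larger number of genes counted where the filter was dropped. Depth limits genes of few UMIs, such as *Tlr4* and *Tet2*.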

Other observations

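The genes given here, 4 in all, were chosen after their values were seen and stood far apart between genotypes in calprotectin-high cells. *Rpgrip1*, a ciliary protein, had 2 UMIs in WT and 42 in *Tet2* KO, and *Ctse*, the protease cathepsin E, 59 and 3. *Gm47283* had 9 and 1 UMIs. *Saa3*, an acute phase protein, had 0 and 181 UMIs, of which 90.6% lay in 3 *Tet2* KO cells, so it says little about the other cells.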
